A study of Drosophila melanogaster with 7 samples.

Results

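The lipocalins are small secreted proteins that fold into a barrel-shaped cup and carry hydrophobic molecules such as fatty acids and sterols. *Drosophila* *NLaz* (*neural Lazarillo*) and *GLaz* (*glial Lazarillo*) are relatives of vertebrate apolipoprotein D and of grasshopper Lazarillo, and are named for their expression in neurons and in glia of the embryonic nervous system. In adult flies both protect against oxidative stress, and *NLaz* is a target of JNK signaling that restrains insulin signaling. *Karl* encodes a further *Drosophila* lipocalin. Array features were assigned to these genes where the platform's annotation gave exactly 1 gene symbol and that symbol was *NLaz*, *GLaz* or *Karl*. This gave 5 of the 10376 features, which are the cDNA clones RE67583 and LP01657 of *NLaz*, GH09946 of *GLaz*, and LP08348 and SD07475 of *Karl*. In RefSeq's gene table for *Drosophila* Release 6 *NLaz* lies on chromosome arm 2L, *GLaz* on 2R and *Karl* on X. *lola* itself also lies on 2R, and 2L and 2R are arms of the same chromosome.

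RNA from *lolaORC4* embryos and from matched control embryos, with different dyes, was hybridized together to each of 7 spotted cDNA arrays, and about 300 embryos, 10 to 12 hours old, went into each sample. *lolaORC4* inactivates isoform K of the transcription factor Lola. The mutant embryos were homozygous for *lolaORC4*, with *sca-GAL4* on one copy of the chromosome and *UAS-tau-eGFP* on the other, and the control embryos carried the same driver and reporter without the mutation. For its *lola* null mutant the study warns that modifier loci on the *lola* chromosome may cause some of the effects. For *lolaORC4* this was not tested here. Both genotypes were *w1118*, and both were sorted by hand for GFP in the central nervous system, where the driver of the *scabrous* gene is active. The RNA came from whole embryos, so fewer cells of a type and less RNA per cell cannot be told apart. The labels placed the mutant RNA in Cy3 on replicates 1, 4 and 6 and in Cy5 on replicates 2, 3, 5 and 7. The study's methods give the counts of the dye orientations the other way round, and the dyes below are those of the labels.

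Each array gave 1 normalized log2 ratio of its channels per feature. The medians of the arrays lay between -0.01 and 0.02. Array pairs sharing a dye orientation, 9 in number, had an r over features between 0.30 and 0.72, and the 12 pairs across orientations had one between 0.06 and 0.63. No r was negative, so the deposited ratios already run one way. Whether they are mutant over control or control over mutant is not stated. Values are therefore given with the deposited sign, and positive or negative does not mean higher or lower in the mutant. Both clones of *spir*, the actin nucleation gene on which the study centers, were negative on all 7 arrays, at -1.58 ± 0.57 for GH13327 and -1.15 ± 0.34 for SD10157 (SD, n = 7), and serve only to show on which side of 0 a lipocalin lay.

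*NLaz* was the only one of the 3 lipocalin genes with a called change, and it was called through a single clone. Clone RE67583 had a mean log2 ratio of 0.89 ± 0.25 (SD, n = 7), a 1.86-fold difference between mutant and control RNA, while LP01657 of the same gene had 0.12 ± 0.07 (SD, n = 7), a 1.08-fold difference. Of the 5 lipocalin features, 1 passed an adjusted p under 0.05 in *limma*, with Benjamini-Hochberg adjustment over all features, and 7.64% of all features did. *GLaz* and both clones of *Karl* had means within 0.07 of 0 and did not pass.

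On RE67583 the log2 ratio was 0.71 on replicate 1, 0.80 on replicate 2, 0.98 on replicate 3, 0.71 on replicate 4, 0.91 on replicate 5, 0.73 on replicate 6 and 1.40 on replicate 7. It was positive on all 7 arrays, opposite to *spir* on each of them, with replicate 7 standing apart at the top. The standard error of the mean was 0.08 and the adjusted p was 0.00039 (*limma*). By absolute mean RE67583 ranked 63rd of the 10376 features. Of all features, 11.6% had a single sign on every array. The gene table lists this clone among the synonyms of *NLaz*, so its assignment rests on more than the platform's annotation.

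On LP01657 the log2 ratio was 0.22, 0.19, 0.03, 0.09, 0.12, 0.11 and 0.07 on replicates 1 to 7. This clone also was positive on all 7 arrays, and its highest value lay well below the lowest value of RE67583. Its standard error was 0.04 and its adjusted p was 0.084 (*limma*), so it did not pass. With a dye coefficient in the model the mean was 0.12 and the adjusted p 0.049, just past the threshold, which 11.9% of all features then passed. Its spread between arrays was among the smallest on the arrays, at percentile 7.19 of all features, whereas that of RE67583 was at percentile 84.3.

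**Figure D1:**
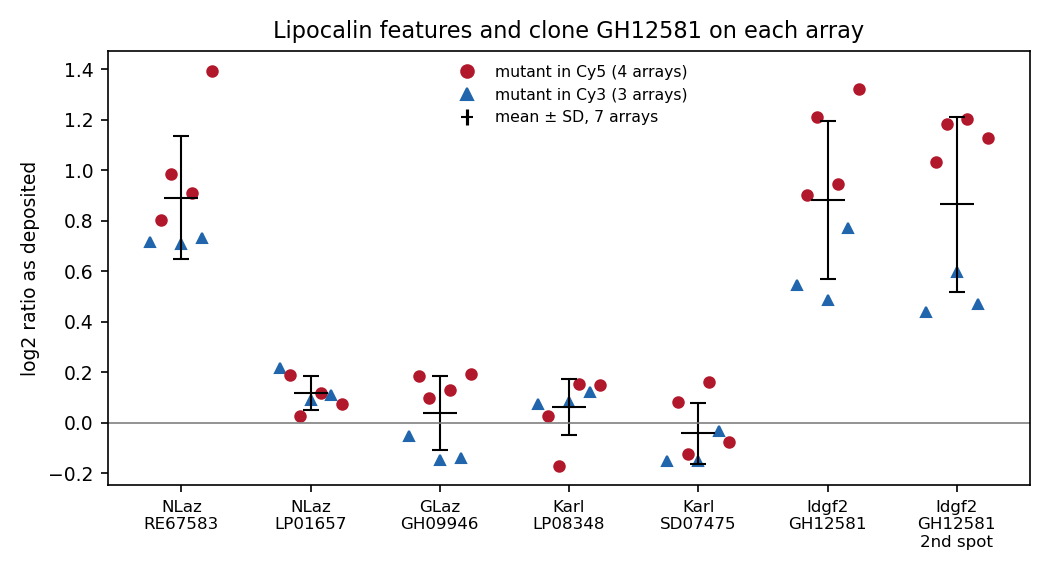
Log2 ratio as deposited (vertical axis) of the 5 lipocalin features and of both spots of clone GH12581 on each of 7 arrays; circles are arrays with the mutant in Cy5, triangles arrays with the mutant in Cy3, and bars the mean ± SD. RE67583 lies between 0.71 and 1.40, while every value of the other 4 lipocalin features lies between -0.17 and 0.22.

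The clones of *NLaz* differed on every array. RE67583 minus LP01657 was 0.50 on replicate 1, 0.61 on replicate 2, 0.96 on replicate 3, 0.62 on replicate 4, 0.79 on replicate 5, 0.62 on replicate 6 and 1.32 on replicate 7, a mean of 0.77 ± 0.28 (SD, n = 7). RE67583 was the higher clone on 7 of 7 arrays (two-sided exact sign-flip permutation test over arrays, p = 0.0156, the smallest that 7 arrays can give; 0.0365 after adjustment over 7 clone comparisons). Within each dye orientation the difference kept its direction, with a mean of 0.58 over the 3 arrays that had mutant RNA in Cy3 and of 0.92 over the 4 that had it in Cy5. No relation between the clones over the arrays passed a test (Pearson r = -0.51, exact permutation p = 0.20; Spearman rho = -0.50, exact permutation p = 0.27; n = 7). Without replicates 3 and 7, the arrays farthest from the median of RE67583, r was -0.11. Each dye orientation held too few arrays for a correlation of its own.

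A gap of this size between clones was rare on these arrays. Of the 768 genes with exactly 2 clones, duplicate spots aside, *NLaz* had the second largest absolute difference between the clones' means, 0.77, behind 1.40 for *CG7382*, which is named here only after its value was seen. *sturkopf* and *CenG1A* came close behind, each at 0.74. The median over the 768 genes was 0.04 and the 95th percentile 0.21. Most of the 768 genes had no called clone, and clones that both lie near 0 cannot show such a gap. In 33 of the 768 genes, or 4.3%, the clones differed in the same direction on all arrays, as those of *NLaz* did. A call on a single clone was not rare: of the 93 such genes with a called clone, 54, or 58.1%, had 1 called clone and 1 that did not pass. The gene table gives *NLaz* 3 transcripts, and which transcript each clone matches was not analysed here.

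**Figure D2:**
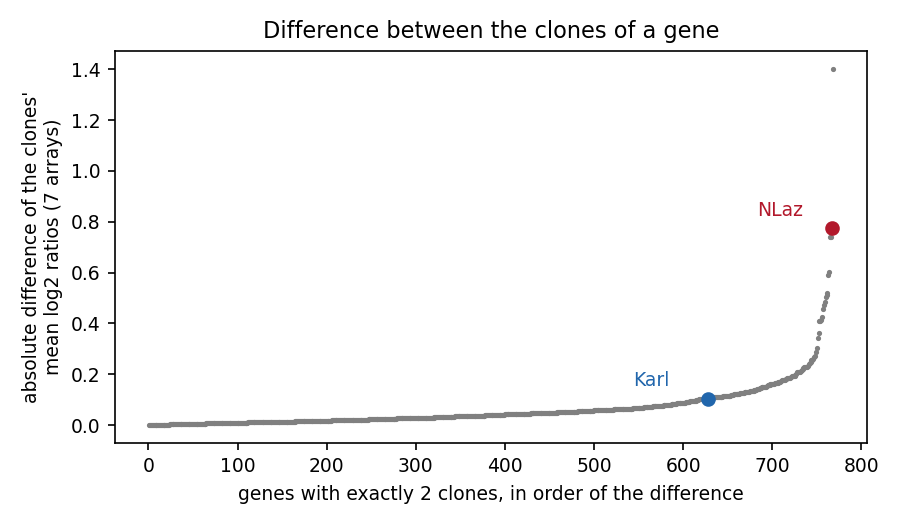
Absolute difference between the mean log2 ratios of a gene's clones (vertical axis) for the 768 genes with exactly 2 clones, in rising order (horizontal axis), each point 1 gene. *NLaz* stands second from the top at 0.77, and *Karl*, at 0.10, lies where the curve begins to steepen.

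The study lists clone GH12581 under *neural lazarillo*, but its own supplementary list of features and the platform's annotation give it to *Idgf2*, and that list gives RE67583 to *NLaz*. The study also measured *neural lazarillo* by quantitative RT-PCR in its *lola* null mutant and reports less of that RNA there. That measurement does not rest on GH12581. *Idgf2* is a gene of the imaginal disc growth factor family of secreted, chitinase-related proteins and also lies on 2L. GH12581 was spotted at 2 places on the arrays. The first spot had log2 ratios of 0.55, 0.90, 1.21, 0.49, 0.95, 0.77 and 1.32 on replicates 1 to 7, and the second had 0.44, 1.03, 1.18, 0.60, 1.20, 0.47 and 1.13. Both were positive on all 7 arrays, both were highest where the mutant was in Cy5, and both passed, with means of 0.88 ± 0.31 (adjusted p = 0.00093 from *limma*) and 0.87 ± 0.35 (SD, n = 7; adjusted p = 0.0016 from *limma*). No other feature had *Idgf2* as its only gene.

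The means of GH12581 and RE67583 could not be told apart. RE67583 minus the first spot of GH12581 averaged 0.01 ± 0.16 (SD, n = 7), with a 95% confidence interval of -0.14 to 0.15, and RE67583 was the higher on 3 of 7 arrays (two-sided exact sign-flip permutation test, p = 0.91). Against the second spot it averaged 0.03 ± 0.26 (SD, n = 7; exact permutation p = 0.75), with an interval of -0.21 to 0.27. The spots of GH12581 themselves differed by 0.02 ± 0.20 (SD, n = 7; exact permutation p = 0.81). Per array the mean absolute difference from RE67583 was 0.12 for the first spot and 0.23 for the second, against 0.16 between the spots of GH12581 and a median of 0.08 over the 10 pairs of duplicate spots on the arrays. A test that misses the threshold does not show that the values are equal. Both spots of GH12581 were higher than LP01657 on 7 of 7 arrays, by 0.77 ± 0.36 and 0.75 ± 0.38 (SD, n = 7; exact permutation p = 0.0156 for each).

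Array by array, RE67583 and the first spot of GH12581 fell in the same order (Spearman rho = 1 and Pearson r = 0.87, exact permutation p = 0.00040 for each, 0.0016 after adjustment over 4 relations; n = 7), and r was 0.85 without replicates 3 and 7. With the second spot r was 0.66 (exact permutation p = 0.035, adjusted 0.070) and rho was 0.75 (exact permutation p = 0.066, adjusted 0.13; n = 7). An r of this size was not particular to the pair, since 69 of the 8596 features of other single genes lay closer to RE67583 by that measure than the first spot did. The arrays share dye orientation and overall spread, and each orientation held too few arrays for a value of its own. RE67583 and both spots of GH12581 had dye orientations that did not overlap. The permutations moved values across orientations, so these p-values do not set the shared dye split aside. Whether RE67583 and GH12581 hold any sequence in common was not tested.

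**Figure D3:**
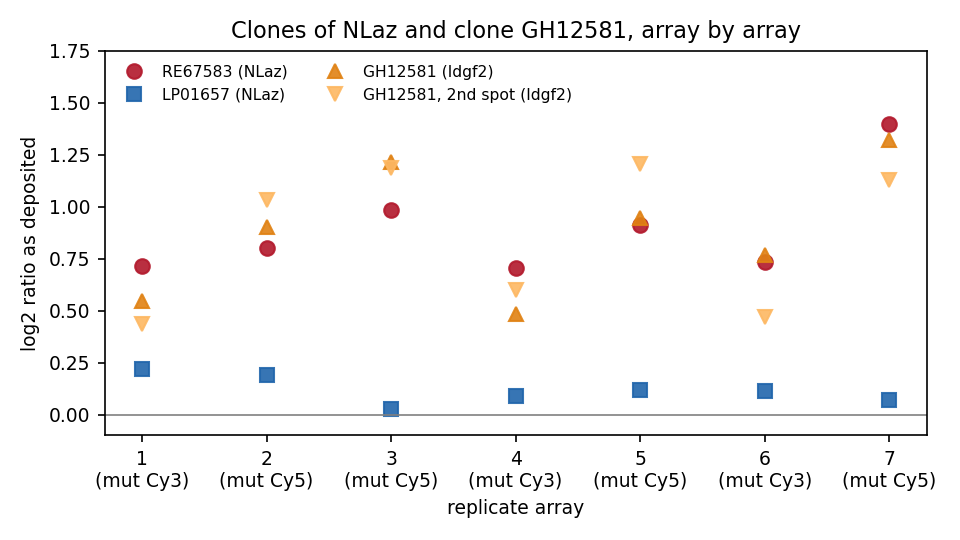
Log2 ratio as deposited (vertical axis) on each replicate array, with the dye of the mutant RNA (horizontal axis), for both clones of *NLaz* and both spots of GH12581, each point 1 spot. RE67583 and both spots of GH12581 lie between 0.44 and 1.40, and LP01657 stays between 0.03 and 0.22 on the same arrays.

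The single clone of *GLaz* followed the dye orientation and had no single sign. GH09946 had log2 ratios of -0.05, -0.15 and -0.14 on replicates 1, 4 and 6, where the mutant was in Cy3, and of 0.19, 0.10, 0.13 and 0.19 on replicates 2, 3, 5 and 7, where it was in Cy5. The orientations did not overlap. Over all arrays the mean was 0.04 ± 0.15 (SD, n = 7; adjusted p = 0.75 from *limma*). The dye coefficient, which is the distance of each orientation from their midpoint, was 0.13 for *GLaz* (adjusted p = 0.025 from *limma*), and 10.6% of all features passed that test. With the coefficient in the model the mean of *GLaz* was 0.02 (standard error 0.03, adjusted p = 0.70 from *limma*). No change of *GLaz* was thus detected with 7 arrays, which does not show that there was none.

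Of the 5 lipocalin features, RE67583 and GH09946 had orientations that did not overlap, as did 26.4% of all features. RE67583 averaged 0.72 ± 0.01 with the mutant in Cy3 (SD, n = 3) and 1.02 ± 0.26 with the mutant in Cy5 (SD, n = 4), but its dye coefficient of 0.15 did not pass (adjusted p = 0.18 from *limma*), and its mean with the coefficient was 0.87 (standard error 0.07, adjusted p = 0.00031 from *limma*). The dye coefficient of GH12581 was 0.25 on the first spot (adjusted p = 0.037 from *limma*) and 0.32 on the second (adjusted p = 0.0018 from *limma*), and the means then were 0.85 and 0.82. LP01657 and both clones of *Karl* had overlapping orientations, and their dye coefficients lay between -0.03 and 0.06.

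*Karl* was close to 0 on both of its clones. LP08348 had 0.07, 0.03, -0.17, 0.08, 0.15, 0.12 and 0.15 on replicates 1 to 7, with replicate 3 alone below 0, and a mean of 0.06 ± 0.11 (SD, n = 7; adjusted p = 0.49 from *limma*). SD07475 had -0.15, 0.08, -0.13, -0.15, 0.16, -0.03 and -0.08, with 5 of 7 arrays below 0, and a mean of -0.04 ± 0.12 (SD, n = 7; adjusted p = 0.67 from *limma*). LP08348 minus SD07475 averaged 0.10 ± 0.13 (SD, n = 7) and was positive on 4 of 7 arrays (two-sided exact sign-flip permutation test, p = 0.13; 0.22 after adjustment over 7 clone comparisons). Of the 768 genes with exactly 2 clones, 141, or 18.4%, had clones at least this far apart. The gene table places the antisense RNA *asRNA:CR44962* over *Karl*, and a spotted cDNA cannot tell the strands apart, so the *Karl* values may include both.

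The nearest genes on each side of the lipocalins that had a feature of their own did not pass. No gene of the table overlapped *NLaz* or *GLaz*. Next to *NLaz*, *CG14346* was at 0.11 ± 0.07 (SD, n = 7; adjusted p = 0.11 from *limma*), and *CG5565*, beyond 1 intervening gene on the other side, was at -0.02 ± 0.39 (adjusted p = 0.95 from *limma*). *Spt-I*, a serine palmitoyltransferase gene next to *GLaz*, was at 0.08 ± 0.06 (adjusted p = 0.21 from *limma*), and *Ack-like*, beyond 4 intervening genes on its other side, was at -0.05 ± 0.10 (adjusted p = 0.58 from *limma*). Near *Karl*, *CG9360*, beyond 2 intervening genes, was at -0.96 ± 0.88 (adjusted p = 0.063 from *limma*), and *Hsc70-3*, beyond 1 on the other side, was at 0.04 ± 0.60 and 0.06 ± 0.38 on its clones.

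Among 8596 features of other single genes, those whose values ran most like RE67583 over the 7 arrays were clones of *sturkopf* (r = 0.99), which encodes a lipid droplet protein, *TM4SF* (r = 0.98), a tetraspanin gene, *pst* (r = 0.97), *mthl8* (r = 0.96) and *snu* (r = 0.96). This clone of *sturkopf* had a mean of 0.50, that of *TM4SF* 0.65 and that of *pst* 0.80, and all 3 passed (adjusted p from 0.00032 to 0.010, *limma*), while *mthl8* at 0.25 and *snu* at 0.21 did not. Another clone of *sturkopf* had a mean that lay 0.74 away from that of this clone. By the root mean square difference on the log2 scale, which takes level as well as pattern into account, the closest were *jim*, a zinc finger gene (0.10), *pst* (0.14), the first spot of *Idgf2* (0.15), *gkt*, a tyrosyl-DNA phosphodiesterase gene (0.15), and *Acbp2* (0.17). The clone of *gkt* meant here had a mean 0.46 away from that of the gene's other clone. For LP01657 the highest r were those of *COX7A* (0.97), *CG2906*, *CG4935*, *CG5292* and *Ets65A* (0.91 to 0.93), none of which passed. None of these features was among the closest by r for both clones of *NLaz*, as the r of -0.51 between those clones already required.

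Genes that handle lipids or act in the JNK pathway were set beside the lipocalins by lists. The list of lipid carriers and lipoprotein receptors also held lipid droplet, lipase and acyltransferase genes. Of its 30 genes, 17 were on the arrays. Of its 21 features, 5 passed and all 5 were positive, on the same side as RE67583, and 16 did not pass. The called share was 23.8%, against 7.64% of all features called and 4.46% called and positive, and the median was 0.09, against -0.01. They were *Acbp2*, an acyl-CoA binding protein gene, at 0.83 ± 0.25, *Npc2a*, whose product binds sterols, at 0.62 ± 0.15, the perilipin gene *Lsd-1* at 0.50 ± 0.17, and the scavenger receptor genes *emp* at 0.35 ± 0.08 and *ninaD* at 0.29 ± 0.12 (SD, n = 7 for each; adjusted p from 0.00037 to 0.0060, *limma*). The lipoprotein receptor genes *LpR1* and *LpR2* were between -0.08 and -0.04 on their 3 clones and did not pass. Clone GH18004 of the lipophorin gene *apolpp* was at -0.57 ± 1.20 (SD, n = 7; adjusted p = 0.43 from *limma*), the widest spread of the list. Of the 20 features of the JNK pathway, 1 passed and 19 did not (5%), with a median of -0.03. It was clone RE18426 of the stress-response gene *Gadd45* at 0.65 ± 0.19 (SD, n = 7; adjusted p = 0.00065 from *limma*), while its other clone, RH70774, was at 0.05. The kinase genes *bsk* and *hep* and the phosphatase gene *puc* lay between -0.13 and 0.00 and did not pass.

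**Figure D4:**
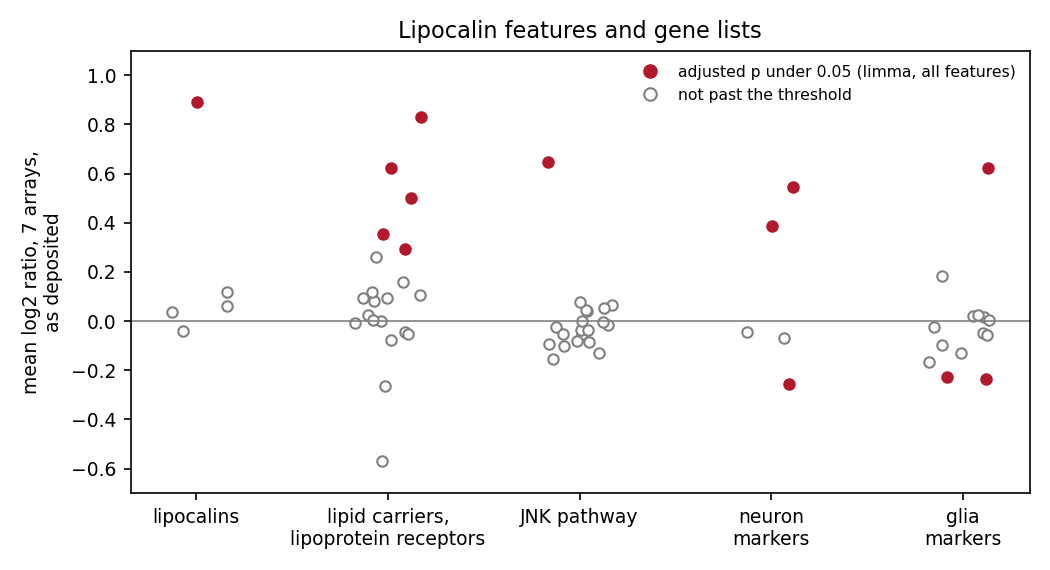
Mean log2 ratio over 7 arrays as deposited (vertical axis) of each feature of the lipocalins and of 4 gene lists (horizontal axis); filled points passed an adjusted p under 0.05 and open points did not. The called lipid features lie between 0.29 and 0.83, and the JNK features crowd around 0 apart from 1 at 0.65.

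Markers of the cells for which *NLaz* and *GLaz* are named were measured in part. Only 4 of 16 neuron markers were on the arrays, with 5 features, of which 3 passed (60%, against 7.64% of all features). The synaptic vesicle gene *nSyb* was at 0.39 ± 0.19 and clone RH24769 of *nrv3* at 0.55 ± 0.34, both positive and called, *onecut* was at -0.26 ± 0.19 and called (SD, n = 7 for each; adjusted p from 0.0071 to 0.040, *limma*). The other *nrv3* clone, RE38489, was at -0.04 (adjusted p = 0.66 from *limma*) and *futsch* was at -0.07 (adjusted p = 0.58 from *limma*). *onecut* did not pass in 6 of the 7 analyses that left out an array (adjusted p up to 0.11), and *nrv3* did not without replicate 5 (0.52, adjusted p = 0.051 from *limma*). Of the 14 features of glia markers, 3 passed and 11 did not (21.4% called, against 7.64% of all features). Clone GH14412 of the glutamine synthetase gene *Gs2* was at 0.62 ± 0.20, and both clones of the trehalose transporter gene *Tret1-1* were negative, at -0.24 ± 0.10 and -0.23 ± 0.10 (SD, n = 7 for each; adjusted p from 0.00086 to 0.013, *limma*). *repo*, the defining glial transcription factor gene, was at -0.10 (adjusted p = 0.37 from *limma*). The part of cell numbers in the values of *NLaz* and *GLaz* was not tested.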

How the data were processed

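The values were deposited by the authors as log2 ratios, 1 for each feature on each array. GenePix intensities had been read into *limma*, whose version was not stated, and left without background correction. Print-tip loess had then been applied within each array and scale normalization between them. From the deposited log2 ratios, each feature's mean over the 7 arrays was tested against 0 in *limma* 3.58.1 (R 4.3.3; lmFit and eBayes), and p-values were adjusted by Benjamini-Hochberg over all 10376 features (threshold 0.05). Each array is the ratio of a matched pair. The number of arrays limits the precision. Clones were compared by exact sign-flip tests over the 128 sign patterns.

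Genes were named by the platform's annotation (8598 features with exactly 1 gene, 517 with several), with 8454 entries matched to RefSeq's gene table for Release 6, none of whose coordinates are given. Named were all lipocalin features, GH12581, the nearest measured neighboring genes, the 5 features most like each *NLaz* clone by each measure used, and up to 4 called features of each list; the other genes named were chosen after their values were seen. The members, lists and tests were chosen with earlier results of these data known. On simulated data with 200 changed features, changes of 0.25 on the log2 scale were recovered in 54%, of 0.5 in 90% and of 1 in 98%, with 12 false calls among all 10376 features. The simulated noise was normal, had each feature's own SD and was independent between features and arrays. It held no dye effect, whereas 10.6% of all features had a called dye coefficient, so recovery on the real arrays may differ.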

Additional observations from a re-analysis of the deposited data

Results flagged for a closer look

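Within the 7 arrays, 2 of the 14 sets of values examined had an array far from the others, where chance gives about 1 in 20. On *NLaz* clone RE67583 replicate 7 was at 1.40 and the next array at 0.98, so this gap took up a share of 0.598 of the whole range. Without replicate 7 the mean was 0.81 and the adjusted p 9.8e-05 (*limma*). Over all features replicate 7 also had the widest spread, with an SD of 0.33 against 0.23 to 0.27 on the other arrays. On *Karl* clone LP08348 replicate 3 was at -0.17 and the next array at 0.03, a share of 0.603 of the range. Without replicate 3 its mean was 0.10, and it did not pass (adjusted p = 0.22, *limma*).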

How the results depend on the processing

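RE67583 and both spots of GH12581 passed, and *GLaz* and both *Karl* clones did not, under a dye coefficient, median centring, quantile normalization, array weights, robust empirical Bayes, features of single genes only, and without any 1 array. RE67583 lay between 0.81 and 0.92 (adjusted p up to 0.0023, *limma*). LP01657 passed only with the dye coefficient (0.12, adjusted p = 0.049, *limma*), which made 2 lipocalin features called, and otherwise had adjusted p from 0.082 to 0.18. Leaving out each array, RE67583 minus LP01657 lay between 0.68 and 0.82 (exact permutation p = 0.031, the smallest 6 arrays allow). As a median over arrays this difference was 0.62. The exact permutation p was then 0.13, the smallest that a sign-flip test of the median can give with 7 arrays. RE67583 minus GH12581 changed sign as a median (-0.036), and leaving out each array it lay between -0.027 and 0.048 for the first spot and between -0.014 and 0.081 for the second. Over all features, 793 passed, 1234 with the dye coefficient, 313 at an adjusted p under 0.01, and 441 to 810 without each array (446 without replicate 3, 441 without replicate 5 and 494 without replicate 7). Glia markers had 5 called features with the dye coefficient and 3 to 4 without each array, and neuron markers had 1 to 3, with 1 without replicate 5. The pairing of mutant and control was already in the values, because each array is itself the ratio of a pair, and all 7 arrays form a single group.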
